A study of Arabidopsis thaliana with 8 samples.

Results

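The 9 nuclear genes described here encode parts of the thylakoid machinery that captures light and makes ATP: LHB1B2, LHCB4.1, LHCB4.2, LHCB4.3, PSAN, PSBY, PSBW, ATPC1 and ATPC2. They were found by name in the platform's annotation, which names 2293 distinct genes in all. The 9 genes lay on 6 of the 3439 probes. The 4 probes for LHB1B2, PSAN, PSBY and PSBW each name 1 gene. The other 2 probes are shared, 1 by the 3 LHCB4 genes and 1 by ATPC1 and ATPC2, so 5 of the 9 genes have no probe of their own.

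Total RNA of root was compared with total RNA of leaf, both from untransformed (WT) Arabidopsis thaliana of the Columbia 0 ecotype. There were 4 root and 4 leaf arrays, numbered 1 to 4 in each tissue. The sources used here give no plant age, growth conditions or treatment, and do not say whether the 4 arrays of a tissue came from separate plants. The p-values therefore measure the spread between arrays, which may be technical.

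In chloroplasts, light is collected by antenna proteins that bind chlorophyll and pass the energy to photosystem II and photosystem I. Electron flow between the photosystems loads the thylakoid lumen with protons, and the plastid ATP synthase uses that gradient to make ATP. Leaf mesophyll is the main site of this process, while root plastids are mostly not green. The antenna and the small photosystem subunits studied here are encoded in the nucleus and imported into the plastid.

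Each value is a spot intensity on a linear, relative scale from 0 up to about 100, where the brightest spots of an array share 1 maximum. Summed over all probes, root arrays reached 2868 to 3505 and leaf arrays 3021 to 3426. Between 12.8% and 15.1% of probes were listed at exactly 0 on root arrays, against 20.0% to 22.8% on leaf arrays. Between 2 and 6 probes per array sat at that maximum, and none of the 6 probes described here did. Intensity depends on the probe as well as on the RNA, so each probe was compared between tissues and not with other probes. In whole tissue, fewer cells that express a gene and less of its RNA per cell cannot be told apart.

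Antenna and photosystem probes were dimmer in root, with 1 exception. Of the 6 probes, 5 fell in root and 1, PSBW, rose (limma on quantile-normalised log2 intensities, Benjamini-Hochberg adjusted p under 0.05 over 3298 probes). The falls ran from 46.8-fold for the major antenna gene LHB1B2 to 1.77-fold for the shared ATP synthase probe, as ratios of mean deposited intensities. Over all probes tested, 22.1% were called lower in root and 20.1% higher. The median log2 difference, root minus leaf, was -2.85 over the 6 probes and 0.05 over all probes tested. Deposited intensities of the tissues did not overlap at any of the 6 probes. Among all tested probes, 15.7% were lower in root without overlap and 35.7% were higher in root without overlap.

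**Figure D1:**
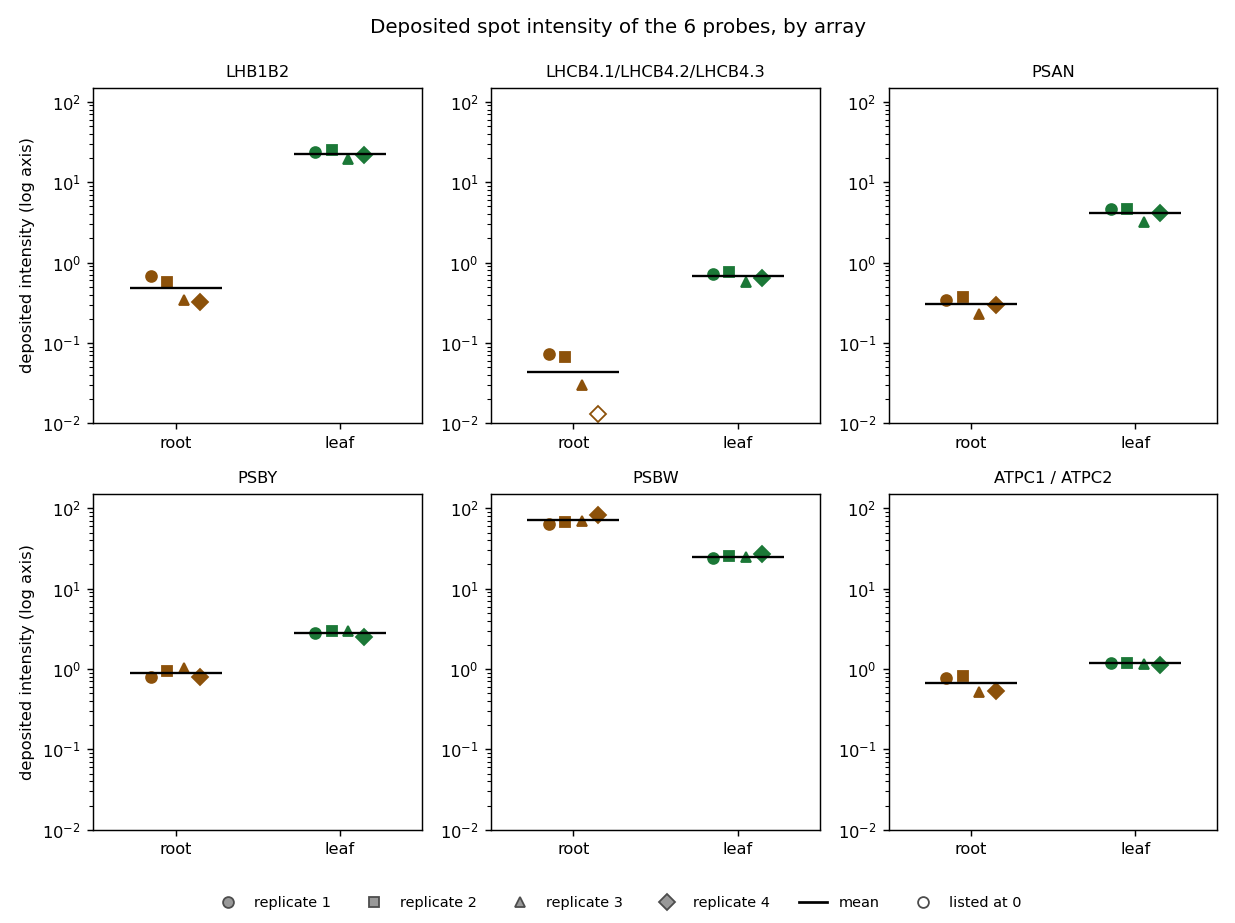
Deposited spot intensity (log axis, relative units) of the 6 probes on each array, root at left and leaf at right in every panel, with a marker shape for each replicate number, a line at the mean of 4 arrays and an open marker for an array listed at 0. Root lies below leaf for LHB1B2, the LHCB4 probe, PSAN, PSBY and the ATPC probe, and above leaf for PSBW, with no overlap in any panel.

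LHB1B2 (AT2G34420) encodes an antenna protein of the Lhcb1 class, which binds chlorophyll and builds the major trimeric antenna of photosystem II. Its probe read 0.680, 0.574, 0.346 and 0.323 on root arrays 1 to 4, against 23.7, 25.1, 19.3 and 21.8 on leaf arrays 1 to 4. All root arrays were far below all leaf arrays. The means were 0.481 ± 0.174 in root and 22.5 ± 2.53 in leaf (SD, n = 4 arrays each), 46.8-fold lower in root. The normalised log2 difference was -5.60 ± 0.24 (SE; limma, adjusted p = 2.78e-06), and only 17 of the 3298 probes had a larger fall. Lhcb1 is encoded by several very similar genes. The annotation names only LHB1B2 for this probe, and whether RNA of the other copies also bound to it was not tested.

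LHCB4.1 (AT5G01530), LHCB4.2 (AT3G08940) and LHCB4.3 (AT2G40100) encode a minor antenna protein that bridges the major antenna and the core of photosystem II. Their shared probe read 0.0737, 0.0675, 0.0300 and 0 on root arrays 1 to 4, against 0.727, 0.768, 0.572 and 0.649 on leaf arrays. Root replicate 4 was listed at 0, and the other root arrays were far below all leaf arrays. The mean was 0.0428 ± 0.0345 in root and 0.679 ± 0.0870 in leaf (SD, n = 4), 15.8-fold lower in root. The probe fell (normalised log2 difference -5.52 ± 0.63, SE; limma, adjusted p = 3.14e-04). Its size depends on how the low root values are treated: -4.46 on the deposited intensities, -4.50 with a floor at the 5th percentile, -5.02 with zeros as missing, which drops root replicate 4, and -3.39 with an offset. How much each of the 3 genes contributed cannot be read from this probe.

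PSAN (AT5G64040) encodes a subunit of photosystem I on the lumenal side, where plastocyanin docks. The probe read 0.338, 0.369, 0.231 and 0.296 on root arrays 1 to 4, against 4.62, 4.61, 3.15 and 4.19 on leaf arrays. The tissues were separated by a wide gap, and replicate 3 was the lowest in both. The mean was 0.309 ± 0.0594 in root and 4.14 ± 0.688 in leaf (SD, n = 4), 13.4-fold lower in root. The normalised log2 difference was -3.998 ± 0.18 (SE; limma, adjusted p = 4.09e-06).

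PSBY (AT1G67740) encodes a precursor that yields small membrane subunits of photosystem II. It read 0.790, 0.952, 1.02 and 0.789 on root arrays 1 to 4, against 2.82, 2.96, 2.94 and 2.52 on leaf arrays. The highest root array was still below the lowest leaf array, but the gap was narrower than for PSAN. The mean was 0.889 ± 0.118 in root and 2.81 ± 0.205 in leaf (SD, n = 4), 3.16-fold lower in root. The normalised log2 difference was -1.70 ± 0.21 (SE; limma, adjusted p = 5.11e-04), and 513 of the 3298 probes had a larger fall.

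PSBW (AT2G30570) encodes another small, nucleus-encoded subunit of photosystem II, known in Arabidopsis for holding photosystem II and its antenna together in supercomplexes. Its probe read 63.2, 67.5, 70.1 and 82.6 on root arrays 1 to 4, against 23.8, 25.2, 24.6 and 26.8 on leaf arrays. Every root array was well above every leaf array, and none was at the maximum of the scale. The mean was 70.8 ± 8.33 in root and 25.1 ± 1.24 in leaf (SD, n = 4), 2.82-fold higher in root. The normalised log2 difference was 1.72 ± 0.26 (SE; limma, adjusted p = 1.37e-03), and 640 of the 3298 probes had a larger rise. On the deposited intensities, 1191 had a larger rise. The probe took between 1.82% and 2.83% of the summed intensity of a root array, against 0.701% to 0.872% of a leaf array.

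The size of the PSBW rise depends on the scaling between arrays. Summed intensities of the tissues overlapped, but on the deposited intensities the median log2 difference of all tested probes was itself 0.80, higher in root. Relative to that shift, PSBW stood 0.69 above the median probe (1.49 as deposited), and centring the arrays on their medians gave 0.66 (limma, adjusted p = 0.0379). It lost its call when replicates 1 and 2, and 3 and 4, were averaged (limma, adjusted p = 0.0678; 1.34e-04 to 0.0678 over 23 alternatives on intensities). Its difference stayed positive under each of these alternatives. The identity of the probe rests on the annotation alone, and whether it also binds other RNA was not tested.

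ATPC1 (AT4G04640) and ATPC2 (AT1G15700) encode the gamma subunit, the rotating shaft of the plastid ATP synthase. ATPC1 is known as the form that serves photosynthesis in leaves. The shared probe read 0.782, 0.825, 0.524 and 0.528 on root arrays 1 to 4, against 1.201, 1.204, 1.17 and 1.13 on leaf arrays. Root was lower on every array, and the leaf arrays were nearly alike, with a coefficient of variation of 2.89% against 24.2% in root. The mean was 0.665 ± 0.161 in root and 1.18 ± 0.0340 in leaf (SD, n = 4), 1.77-fold lower in root. The probe fell (normalised log2 difference -1.11 ± 0.16, SE; limma, adjusted p = 1.11e-03; -0.85 as deposited). It did not pass when replicates 1 and 2, and 3 and 4, were averaged (limma, adjusted p = 0.0901; 8.69e-05 to 0.0901 over 23 alternatives on intensities). A change in the balance of ATPC1 and ATPC2 cannot be seen on a probe that both share.

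**Figure D2:**
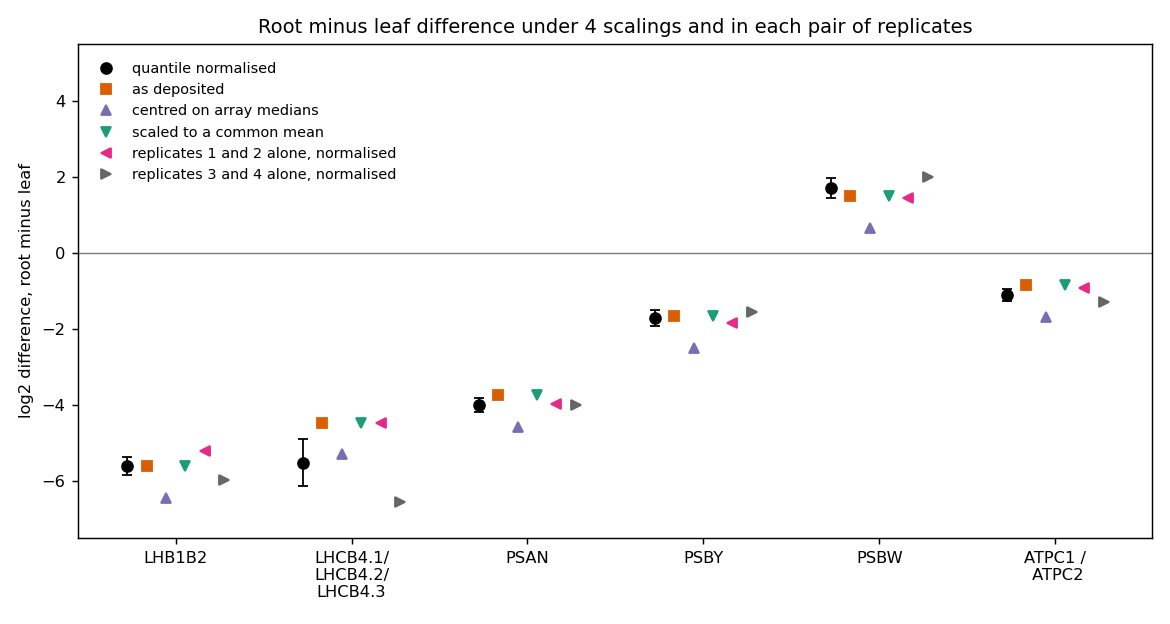
Log2 difference, root minus leaf, of the 6 probes, quantile normalised (black circles, bars are limma's SE), as deposited, centred on array medians and scaled to a common mean, and after normalisation in replicates 1 and 2 alone and 3 and 4 alone. The 5 falling probes lie below 0 and PSBW lies above 0 in every case shown, and the LHCB4 probe varies most, from -4.46 to -6.57.

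Rank within the array needs no scaling between arrays, so the probes were also placed from 1, the brightest, to 3439. LHB1B2 was between places 936 and 1508 on root arrays, against 26 to 29 on leaf arrays. PSAN was between 1564 and 1842 in root, against 101 to 138 in leaf. The LHCB4 probe was between 2722 and 3220 in root, the last being the shared place of probes listed at 0, against 596 to 735 in leaf. These probes thus lay in the middle or the dim part of root arrays, against the bright part of leaf arrays.

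PSBY stood between 449 and 813 in root, against 154 to 185 in leaf. The ATPC probe stood between 773 and 959 in root, against 380 to 411 in leaf. PSBW was between 5 and 8 in root, against 20 to 28 in leaf, so it was among the brightest spots of both tissues. The ranks of root and leaf did not overlap for any of the 6 probes. The share of all probes without overlap in rank was not counted, so this is not shown to be particular to the 6 probes. On the deposited intensities, 15.7% of tested probes were lower and 35.7% higher in root without overlap. That is another measure and does not give the share for ranks.

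In a limma fit on rank, as percent of the probes on an array, 5 of the 6 probes were called lower in root and 0 higher. Over all tested probes 21.9% were called lower in root and 21.7% higher. The differences were -65.1 ± 3.42 percentage points for the LHCB4 probe, -45.1 ± 2.16 for PSAN and -35.0 ± 3.78 for LHB1B2 (SE; limma, adjusted p = 1.17e-05, 8.10e-06 and 2.90e-04). The ATPC probe and PSBY differed by -13.9 ± 1.85 and -13.4 ± 2.405 percentage points (SE; limma, adjusted p = 7.62e-04 and 3.14e-03). PSBW stood at 99.8% ± 0.0436 in root and 99.3% ± 0.107 in leaf (SD, n = 4), a difference of 0.531 (limma, adjusted p = 0.782). With both tissues this near the top of the scale, the fit on rank leaves little room for a rise and does not show equal levels.

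**Figure D3:**
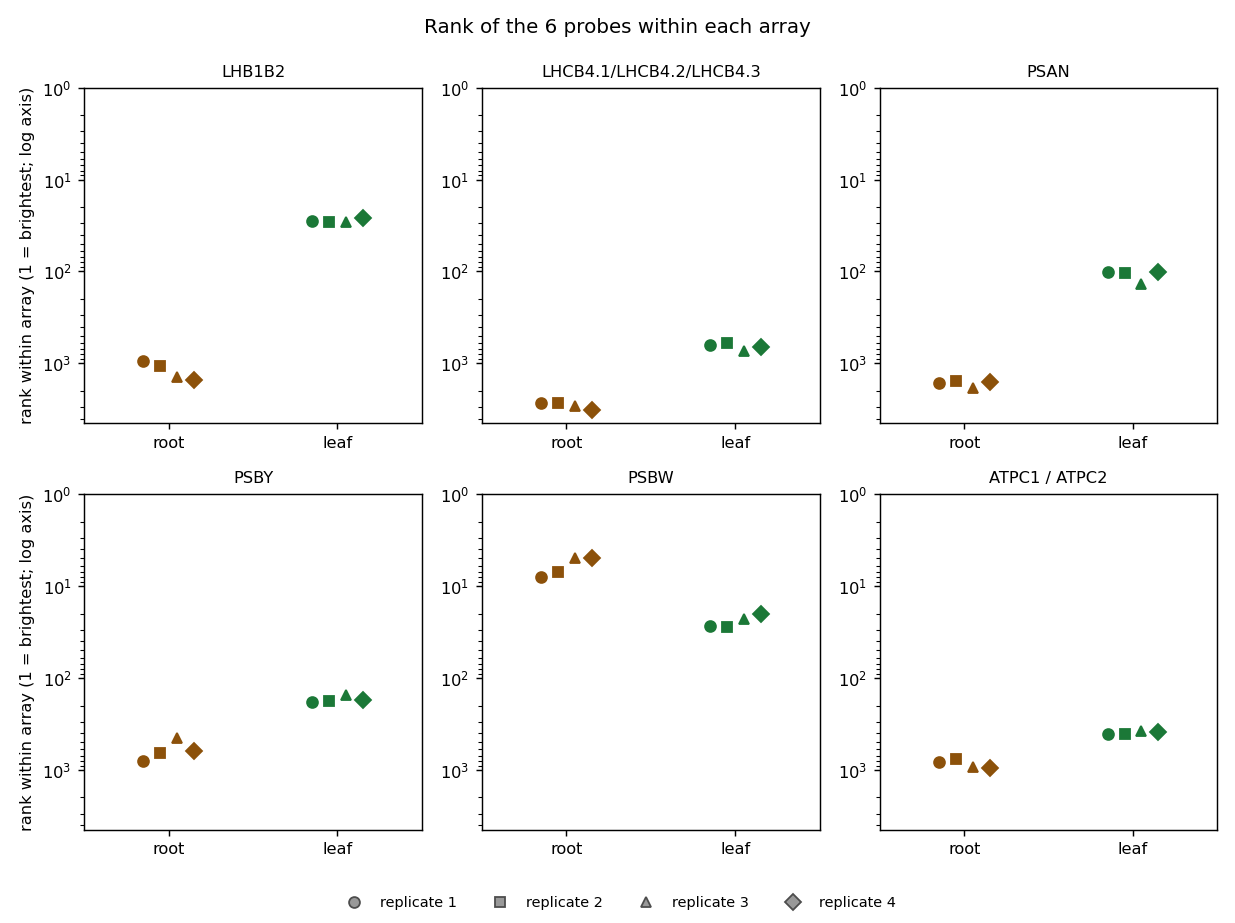
Rank of the 6 probes among the 3439 on each array (log axis, 1 is the brightest and at the top), root at left and leaf at right, with a marker shape for each replicate number. PSBW lies between places 5 and 8 in root and 20 and 28 in leaf, while LHB1B2 lies between 936 and 1508 in root and 26 and 29 in leaf.

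The members did not change by the same factor, as ratios of 2 probes on the same array show. The scale of an array cancels in such a ratio, which was compared between tissues only. The numerator of each pair was the probe with the higher root minus leaf difference on the deposited intensities. That each ratio was higher in root was therefore set by this choice, and only its size and spread were read. PSBW over LHB1B2 was 93.0, 118, 203 and 255 on root arrays 1 to 4, against 1.004, 1.004, 1.27 and 1.23 on leaf arrays. The ratio was thus 138-fold higher in root by its mean log2 value (log2 difference 7.11). PSBW over PSBY, both subunits of photosystem II, was 80.0, 70.8, 68.5 and 105 in root, against 8.46, 8.52, 8.38 and 10.6 in leaf, which was 8.92-fold higher in root.

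The falling genes also differed among themselves. PSBY over PSAN was between 2.34 and 4.42 in root and between 0.601 and 0.931 in leaf, 4.24-fold higher in root. PSAN over LHB1B2 was 3.64-fold higher in root, and PSBY over LHB1B2 was 15.4-fold higher. For each of the 6 pairs of single-gene probes, the ratios of the tissues did not overlap. In the pairs with PSBW this had to follow, since both probes separated the tissues, in opposite directions. How often other pairs of probes separate the tissues was not counted. Each of the 6 pairs gave p = 0.0286 in a two-sided exact permutation test over 70 relabelings. This is the smallest the test can give, and any ratio without overlap gives it. It is also the value after Benjamini-Hochberg adjustment over the 6 pairs. The p-values therefore add nothing to the lack of overlap, and for the pairs with PSBW they were fixed beforehand. By these intensity ratios, the fall among the single-gene probes was deepest for LHB1B2, then PSAN, then PSBY, and PSBW went the other way. The order is another on rank, where PSAN fell further than LHB1B2 (-45.1 against -35.0 percentage points).

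**Figure D4:**
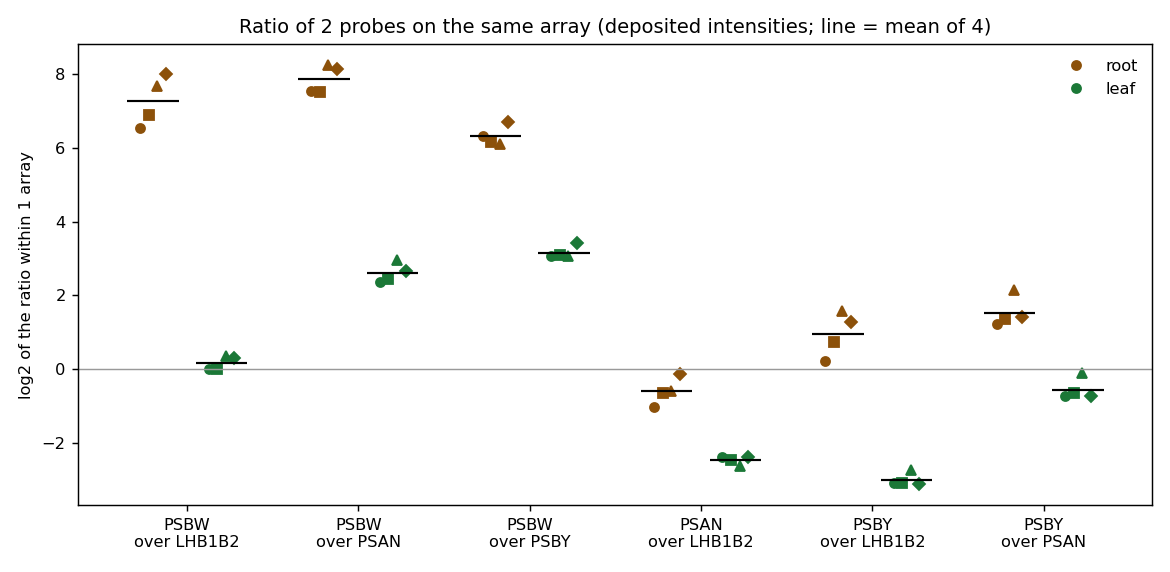
Log2 ratio of 2 probes on the same array, deposited intensities, for the 6 pairs of single-gene probes, root left of leaf within each pair, with marker shapes for replicates 1 (circle), 2 (square), 3 (triangle) and 4 (diamond) and a line at the mean of 4 arrays. The numerator is the probe with the higher root minus leaf difference, so root above leaf was set by this choice. The tissues do not overlap in any of the 6 pairs, and the gap is widest for PSBW over LHB1B2 (7.11).

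Within root, the arrays differed between replicates 1 and 2 and replicates 3 and 4. LHB1B2 averaged 0.627 on root arrays 1 and 2 and 0.334 on root arrays 3 and 4, a ratio of 1.87. For the ATPC probe this ratio was 1.53 and for the LHCB4 probe 4.70. PSAN had 1.34, PSBY 0.961 and PSBW 0.856, so the subsets did not differ by a common factor. In leaf the same ratio lay between 0.956 for PSBW and 1.26 for PSAN.

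The labels do not say whether the subsets were processed apart. Each subset holds both tissues, and within each all 6 probes kept their direction. The normalised log2 difference of LHB1B2 was -5.22 in replicates 1 and 2 alone and -5.97 in 3 and 4 alone. PSAN had -3.99 and -4.01, PSBY -1.85 and -1.56, PSBW 1.45 and 1.99, the ATPC probe -0.92 and -1.30, and the LHCB4 probe -4.48 and -6.57. Each of these also passed limma within its subset of 2 root and 2 leaf arrays, with adjusted p of up to 0.0252. Such calls were common: of 3298 probes, 571 were called higher and 653 lower in root in replicates 1 and 2 alone. In replicates 3 and 4 alone, 606 were called higher and 700 lower.

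Other genes of the light reactions were looked up from a list of 106 genes covering photosystem subunits, antenna, electron carriers, ATP synthase and assembly factors. It had 11 probes, the 6 above and 5 more, all of which concern photosystem II. No probe was found for the electron carriers. None of the 5 passed the test (limma, 0 of 5 called in either direction, adjusted p between 0.111 and 0.733; 0 of 5 at an unadjusted p below 0.05), with a median log2 difference of 0.25 against 0.05 over all tested probes. On the deposited intensities 2 of the 5 were called higher in root, beside 1137 of all 3298 tested probes. With median centring 1 of the 5 was called higher and 1 lower, beside 610 and 871 of all 3298. The lower call among the 5 was the probe shared by LPA66 and AT2G42920 (-0.84, limma, adjusted p = 0.00721), which was above 0 on only 1 array. Centring moves apart values that are equal at the floor, and as deposited its difference was -0.01 (limma, adjusted p = 0.958).

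PSB27 (AT1G03600), a lumenal protein that assists assembly and repair of photosystem II, read 1.76, 2.05, 1.01 and 0.549 on root arrays 1 to 4, against 1.44, 1.55, 0.973 and 0.353 on leaf arrays. In both tissues it was highest on arrays 1 and 2 and lowest on array 4, and the tissues overlapped (log2 difference 0.25 ± 0.54, SE). LPA19 (AT1G05385), a related protein that takes part in maturation of the reaction centre protein D1, read 0.0866, 0.157, 0.0328 and 0.0792 in root. In leaf it was listed at 0 on arrays 1, 3 and 4 and read 0.0664 on array 2, which lay inside the root range. Its log2 difference was 1.60 ± 1.17 (SE), and 2.85 on the deposited intensities (limma, adjusted p = 0.0334). The size depends on how the leaf zeros are treated. It was 0.15 with a floor at the 5th percentile and 0.40 with an offset (limma, adjusted p = 0.847 and 0.463).

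The 3 remaining probes are each shared by an assembly factor and a second gene. The probe of PAM68 and AT5G52780 read 0.288, 0.0933, 0.704 and 0.467 in root, against 0.00225, 0.00447, 0.0126 and 0.0943 in leaf. Apart from leaf array 4, which just exceeded root array 2, root was higher (log2 difference 1.88 ± 0.84, SE; limma, adjusted p = 0.111). It was called higher in root on the deposited intensities (4.44; limma, adjusted p = 0.00968). Leaf arrays 1 and 2 read below the floor of 0.00582, so this size depends on the floor. With an offset, after normalisation, the difference was 1.36 (limma, adjusted p = 0.0789).

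The probe of LPA1 and AT4G28740 read 0.130, 0.181, 0.429 and 0.405 in root, against 0.220, 0.203, 0.593 and 0.465 in leaf. Both tissues were higher on arrays 3 and 4, and they overlapped (log2 difference -1.12 ± 0.62, SE; limma, adjusted p = 0.178). With replicates 1 and 2 against 3 and 4 as a block, it was called lower in root (limma, adjusted p = 0.0148; 0.0148 to 0.616 over 22 alternatives), but not when the same replicates were averaged (limma, adjusted p = 0.397). The probe of LPA66, an RNA editing factor for a photosystem II transcript, and AT2G42920 was listed at 0 on all root arrays and on 3 of 4 leaf arrays.

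**Figure D5:**
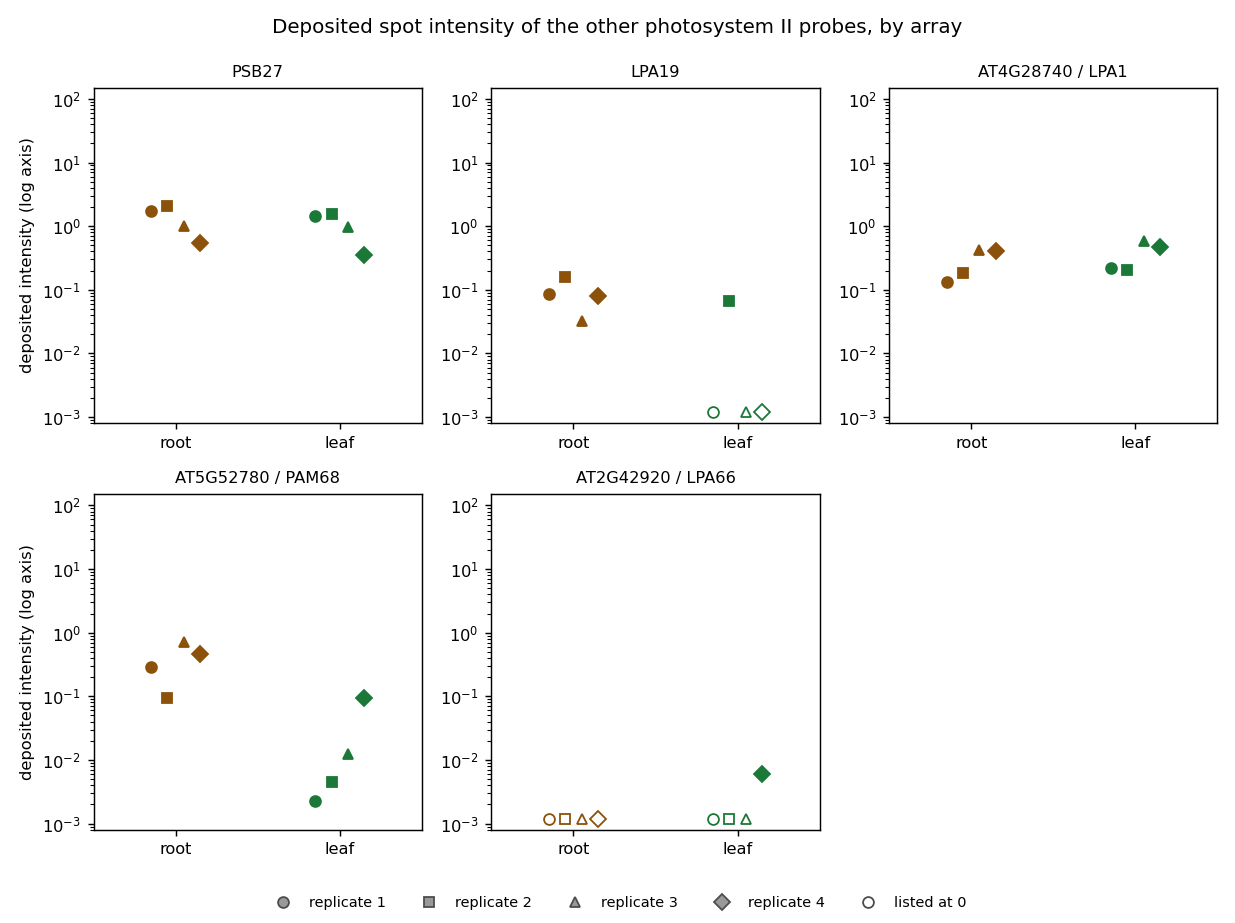
Deposited spot intensity (log axis, relative units) of the 5 further photosystem II probes on each array, root at left and leaf at right, with a marker shape for each replicate number and open markers for arrays listed at 0. PSB27 and the LPA1 probe overlap between tissues, and the PAM68 probe overlaps only through leaf replicate 4 (0.0943).

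The labelled tissues were checked against marker genes. Of 16 leaf markers of carbon fixation and photorespiration, 3 genes had probes, 4 in all. PRK (AT1G32060), an enzyme of the Calvin cycle, read between 0.0827 and 0.197 in root and between 2.59 and 4.50 in leaf. SBPASE was listed at 0 on all 8 arrays. The other 2 probes are shared by RCA, the activase of the carbon-fixing enzyme Rubisco, and AT1G73110. The brighter read 0.415, 0.385, 0.306 and 0.294 on root arrays 1 to 4, against 0.147, 0.0851, 0.277 and 0.261 on leaf arrays, so it was higher in root without overlap as deposited. It did not pass after normalisation (log2 difference 0.16 ± 0.29, SE; limma, adjusted p = 0.680) or as deposited (0.999 ± 0.40, SE; limma, adjusted p = 0.0725). The dimmer read 0.0585, 0.0168, 0.00507 and 0 in root, against 0, 0, 0.02002 and 0 in leaf, and was not called (limma, adjusted p = 0.924). Of these 4 probes, only that of PRK was called lower in root (limma, adjusted p = 3.44e-05). None of 22 root marker genes had a probe, so the root label could not be checked in this way.

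The genes most like each single-gene member were ranked among 658 other single-gene probes, by the root mean square distance of the normalised log2 profile over 8 arrays after each probe was centred on its mean. For LHB1B2 they were AT5G38360 (distance 0.27), PRK (0.68) and AT3G06570 (0.80). AT5G38360 averaged 0.610 ± 0.124 in root and 29.8 ± 2.21 in leaf (SD, n = 4). For PSAN they were AT3G06570 (0.19), AT5G46420 (0.49) and AT3G47650 (0.52). AT5G46420 was listed at 0 on all root arrays, so its place rests on the floor.

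For PSBY the nearest were AT2G35390, AT3G27110 and AT5G03370, at distances of 0.16, 0.18 and 0.18. For PSBW they were HEMA3 (AT2G31250), AT3G04650 and AT3G09080, at 0.13, 0.17 and 0.18. HEMA3 belongs to the glutamyl-tRNA reductase genes of tetrapyrrole synthesis and averaged 2.295 ± 0.129 in root and 0.659 ± 0.0257 in leaf (SD, n = 4). The distances describe these 8 arrays, in which the tissue difference makes up most of each profile.

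Among the members themselves, the closest pairs on the same measure were PSBY with the ATPC probe (0.41) and LHB1B2 with the LHCB4 probe (0.59). PSBW was at least 1.47 from each other member.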

How the data were processed

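Spot intensity was measured on 8 arrays, 4 of root and 4 of leaf, grouped by the sample titles. The intensities are the authors' deposited values, 1 per probe and array, linear and relative, and how they were hybridised, background-corrected or scaled is not given in the sources used here. Genes were joined by probe number to the platform's annotation, with 692 probes of 1 gene, 870 of several and 1877 of none, and to the RefSeq gene table (assembly TAIR10.1) for names, where 690 of the 692 matched. Since the values name no genome build, coordinates are not printed, and no sequences were used here.

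Intensities were quantile normalised, then set to at least 0.00582, the 1st percentile of the deposited values above 0, before log2. Leaving out 141 probes that never exceeded this floor gave 3298 to test. Root was compared with leaf in limma 3.58.1 (R 4.3.3), tissue as the only term, two-sided, Benjamini-Hochberg over all tested probes. Ranks were fitted in the same way, and ratios of probes by exact permutation. The fit was tested on simulated data. Every probe naming a member or a gene of the light reaction list is named, with the 3 most like genes per single-gene member. Members and lists were chosen with earlier results of these data known. Alternatives covered scaling, floor, filter, design, variance model and leaving out each array; each subset alone was added after seeing the data. The number of arrays limits the precision.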

Additional observations from a re-analysis of the deposited data

Results flagged for a closer look

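Among 22 sets of 4 arrays of 1 tissue, for 11 probes, 3 held an array far from the other 3. Chance gives about 1 in 20, but that rate does not apply to the LPA66 and LPA19 sets, in which any value above 0 stands apart from 3 arrays tied at 0. All 3 were dim leaf values of assembly factor probes, and none belonged to the antenna, photosystem subunit or ATP synthase probes. The probe shared by LPA66 and AT2G42920 read 0.00598 on leaf replicate 4, just above the floor of 0.00582, and was listed at 0 on the other leaf arrays. The probe shared by PAM68 and AT5G52780 read 0.0943 on leaf replicate 4, against at most 0.0126 on the others. LPA19 read 0.0664 on leaf replicate 2 and was listed at 0 on the others. Without leaf replicate 2, LPA19 was called higher in root (limma, log2 difference 2.68, adjusted p = 0.0204; 0.0204 to 0.847 over 20 alternatives).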

How the results depend on the processing

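The 5 probes that fell and PSBW, which rose, kept direction and call under 20 of the 22 alternatives fixed at the start; the exceptions were the subset averages and the rank scale. With subset averages PSBW (1.72, adjusted p = 0.0678) and the ATPC probe (-1.11, adjusted p = 0.0901) did not pass limma, and 336 probes were called higher and 370 lower in root in place of 664 and 729. This alternative leaves 4 values per probe. On the rank scale PSBW did not pass (0.531 percentage points). Calls higher in root numbered 1137 on the deposited intensities and 1155 with a common mean; with any 1 array left out they lay between 545 and 653, and calls lower in root between 656 and 672. Within-array ratios kept their direction under all 10 alternatives each, of which the floor at the 5th percentile changed no value. Their p was the smallest the permutations allow each time, so it says nothing about stability.

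Of the light reaction list, 1 probe was called higher in root, against 3 as deposited, with a common mean and without the brightest 5% in the scaling, 2 with median centring, 0 with subset averages and on ranks, and 1 to 2 with an array left out (2 without leaf replicate 2 or root replicate 2). Over all tested probes the calls higher in root, in the same order, were 664, against 1137, 1155 and 894, then 610, then 336 and 717. PSB27 changed sign, without passing, with median centring (-0.49) and without leaf replicate 4 (-0.16, within -0.16 to 0.63 over the arrays left out); the cause was not tested.

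Same-numbered root and leaf arrays correlated in their deviations at 0.0901 to 0.126, each the highest for its number, a hint from the data and not the design. The replicate block gave 596 higher and 648 lower calls, kept all 6 member calls (adjusted p of up to 0.0129) and added 1 call, the LPA1 probe (-1.12, adjusted p = 0.0484), which had adjusted p = 0.397 with subset averages. Values at 0 limit the LHCB4, LPA19 and LPA66 probes, and leaf values below the floor limit the PAM68 probe on the deposited intensities.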
